A study of Danio rerio with 8 samples.

Results

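The genes of fatty acid synthesis, desaturation and elongation described here are acss2, aclya, acaca, acacb, fasn, scd, fads2, elovl6, elovl5 and elovl2, chosen by gene symbol. Earlier results of these data were known when they were chosen. All 10 were found, each on a single row of the 35117 rows of the count table. Total RNA was sequenced from livers dissected from zebrafish larvae at 7 days after fertilization. The tested line was lf:YAP, a transgenic zebrafish with YAP activated specifically in hepatocytes (4 libraries, each a pool of 10 livers), and it was set against WT larvae (4 libraries, also pools of 10 livers). Neither group was treated. YAP is the coactivator through which Hippo signalling controls transcription. The promoter of the transgene, the number of insertions and the clutches behind the pools are not stated in the labels, so the p-values measure the spread between pools, which may be technical in part. In such bulk samples, fewer cells of a type and less RNA per cell cannot be told apart.

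Fatty acids are built in the cytosol from acetyl-CoA, which acetyl-CoA carboxylase converts to malonyl-CoA and fatty acid synthase then joins into palmitate with reducing power from NADPH. Desaturases place double bonds in the chain and elongases of the ELOVL family lengthen it. In the liver these enzymes are textbook targets of the transcription factors SREBP1 and ChREBP, and the series title names an SREBP-dependent lipogenic program as its subject. The comparison of lf:YAP with WT livers asks which of these transcripts change with activation of YAP in the hepatocyte.

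In lf:YAP livers, transcripts for the front-end desaturase fads2, the citrate-cleaving enzyme aclya, fatty acid synthase and the elongases elovl2 and elovl5 were higher. The acacb transcript was lower. The acss2 transcript was also called lower, but that call held in none of the 8 fits that left out 1 library. The fads2 increase was 8.14-fold and the other increases were 1.83-fold to 2.73-fold. The acaca transcript did not pass the test, and scd and elovl6 had too few counts to be tested. Among the members, fads2, aclya and fasn alone passed in each of the 8 fits that left out 1 library. The elovl2 call held in 3 of those 8 fits, the acacb call in 4 and the elovl5 call in 6. Enough counts for the test were reached in 4 lf:YAP libraries by elovl2 and by elovl5, but in only 3 and 2 WT libraries.

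Depth was 2668432 to 3170508 counts over rows with a gene name in lf:YAP and 2853543 to 3797709 in WT. Levels are CPM, the counts scaled to a common total, with library sizes scaled by TMM, a method that sets libraries to a common level over most genes. Genes with enough counts in 4 libraries (at least 3.44 CPM, or 10 counts at the median depth) were tested with the edgeR quasi-likelihood test, and those with an adjusted p under 0.05 over all 8369 genes tested were called changed. The yap1 transcript, which checks the labels, was at 303 to 1320 CPM in lf:YAP and 16.9 to 24.0 CPM in WT. Summed hepatocyte markers (11 of 11 matched) lay at 18290 to 35750 CPM in lf:YAP and 29370 to 40130 CPM in WT. Of these 11 markers, 2 were higher (fabp10a and cp) and 2 lower (apoa2 and fgb), with a median log2 fold change of -0.15. Over all genes tested, 11.1% were higher and 10.5% lower. The sum hides opposite directions: fabp10a averaged 7990 CPM in lf:YAP and 2730 CPM in WT. The apoa1b transcript, which did not pass, averaged 8520 CPM in lf:YAP and 16600 CPM in WT.

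Of the 10 members, 5 were higher and 2 lower, 1 did not pass and 2 were not tested. Of all genes tested, 21.6% were called changed, 11.1% as higher and 10.5% as lower. The 8 tested members had a median log2 fold change of 1.06, beside 0.01 for all genes tested. Both are descriptions, since a member could reach the filter through its higher group alone. The members were also chosen with earlier results of these data known. The filter was met in 4 libraries of each group by aclya, acaca, acacb, fasn and fads2. It was met in 4 lf:YAP libraries and 3 WT libraries by elovl2, and in 4 lf:YAP and 2 WT libraries by elovl5. The acss2 transcript met it in 2 lf:YAP and 4 WT libraries. The elovl2, elovl5 and acss2 transcripts thus each met it in more libraries of the group where they were higher. That group alone was enough for them to be tested. Only 4 members passed in place of the 7 when any of these libraries was left out: replicates 2 and 4 of lf:YAP and replicates 2, 3 and 4 of WT. In those 5 fits, 15.2% to 19.2% of all genes were called. With libraries scaled by total counts alone, 6 members were higher and 0 were lower, while the split over all genes went to 1537 higher (18.4%) and 517 lower (6.18%), 24.5% in all, in place of 929 and 875, and the median over all genes moved to 0.32.

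**Figure D1:**
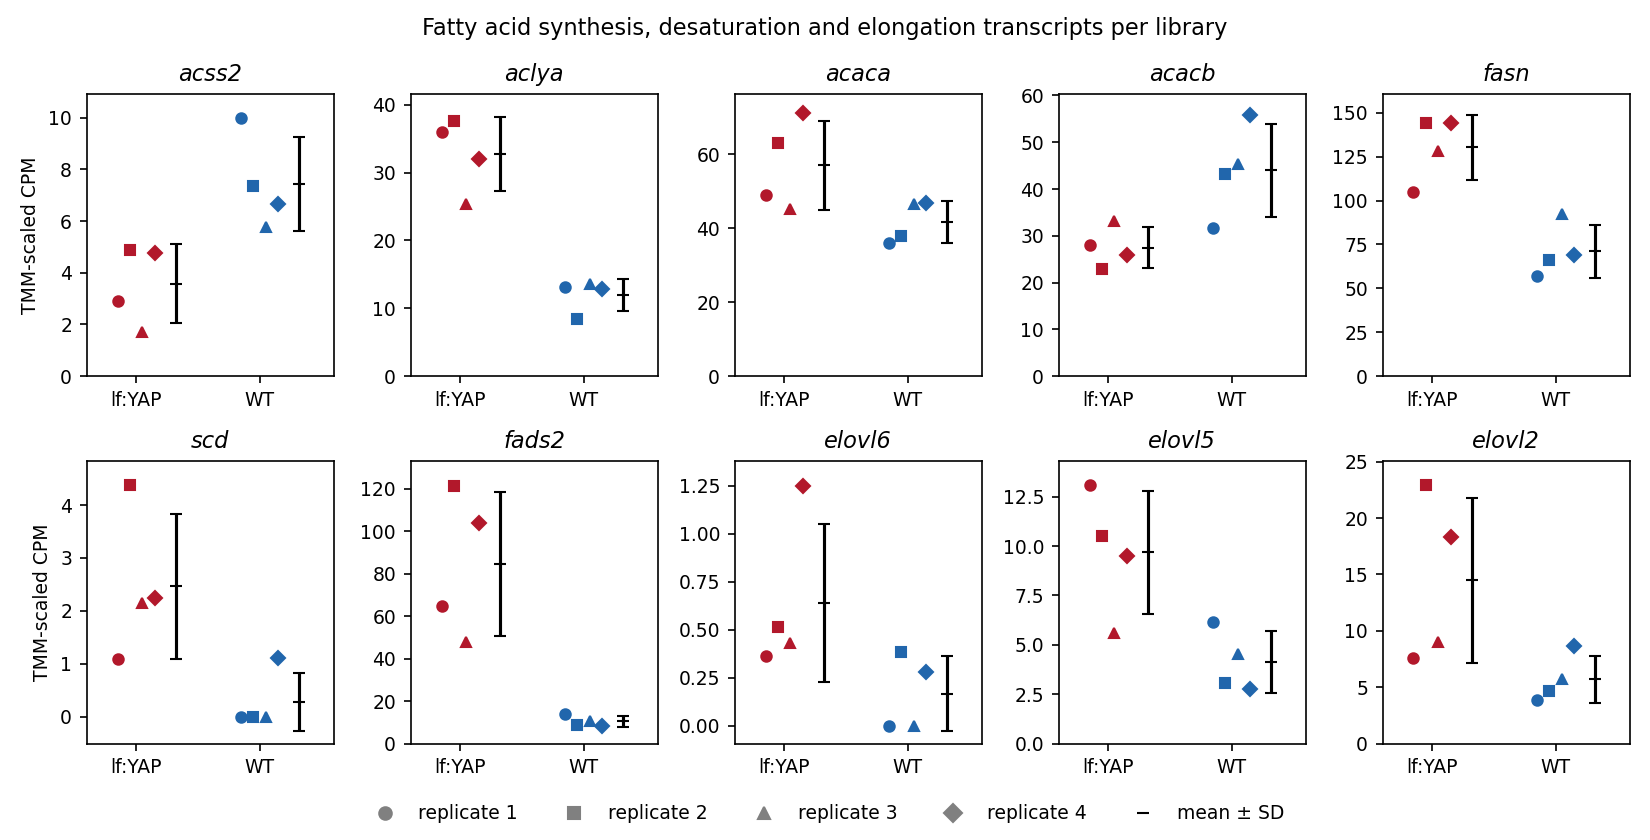
Each panel plots the TMM-scaled CPM of 1 gene (vertical axis, linear, a scale of its own) in the 4 lf:YAP and 4 WT libraries, with a marker shape per replicate number and the group mean ± SD as a black bar. The lf:YAP libraries all lie above the WT libraries for aclya, fasn and fads2 and all below them for acss2, and the groups overlap or touch for the other 6 genes.

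The supply of cytosolic acetyl-CoA comes from citrate through ATP citrate lyase, encoded by aclya, or from acetate through the acetyl-CoA synthetase encoded by acss2. The aclya transcript was at 36.0, 37.6, 25.4 and 32 CPM in lf:YAP replicates 1 to 4, against 13.1, 8.49, 13.6 and 12.8 CPM in WT replicates 1 to 4. The groups did not overlap, and the closest libraries were lf:YAP replicate 3 and WT replicate 3. Its mean was 32.7 ± 5.41 CPM in lf:YAP and 12 ± 2.36 CPM in WT (SD, n = 4 each), or 1.45 ± 0.20 in log2 fold change (SE; adjusted p = 0.00038). Across the libraries left out in turn it stayed between 1.3 and 1.54.

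The acss2 transcript was scarce, with 8, 19, 4 and 19 counts in lf:YAP, against 26, 19, 14 and 24 counts in WT, replicates 1 to 4 in each case. These came to 2.91, 4.89, 1.72 and 4.75 CPM in lf:YAP and 10.0, 7.34, 5.76 and 6.67 CPM in WT. All lf:YAP libraries lay below all WT libraries, though lf:YAP replicate 2 and WT replicate 3 were close together. The log2 fold change was -0.98 ± 0.33 (SE; adjusted p = 0.0474), and the call did not hold in any of the 8 fits without 1 library (adjusted p of 0.0517 to 0.124), with DESeq2 (0.0531), with limma-voom (0.0534) or with total counts alone (-0.65, adjusted p = 0.225). A second row with a related symbol, acss2l, named after its values were seen, had 25.3 ± 8.48 CPM in lf:YAP and 39.5 ± 8.35 CPM in WT (SD, n = 4 each), and its log2 fold change of -0.66 ± 0.24 (SE) did not pass (adjusted p = 0.063). Reads of such related genes may be split or lost in counting.

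Acetyl-CoA carboxylase makes malonyl-CoA and has a pair of forms. In mammals the cytosolic form encoded by ACACA feeds fatty acid synthesis, and the form encoded by ACACB sits at the mitochondrial outer membrane, where its product restrains fatty acid oxidation. The acaca transcript was at 49, 63.0, 45.2 and 71.0 CPM in lf:YAP replicates 1 to 4, against 35.9, 37.8, 46.5 and 46.7 CPM in WT. The groups overlapped at lf:YAP replicate 3 alone, which lay below WT replicates 3 and 4. Its log2 fold change of 0.46 ± 0.18 (SE), with a 95% interval from 0.01 to 0.90, did not pass after adjustment (adjusted p = 0.0916). It passed without lf:YAP replicate 3 (0.55, adjusted p = 0.0317) and with total counts alone (0.79, adjusted p = 0.0347).

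The acacb transcript moved the other way. It was at 28.0, 22.9, 33.2 and 25.8 CPM in lf:YAP replicates 1 to 4, against 31.7, 43.2, 45.3 and 55.9 CPM in WT. The groups overlapped where lf:YAP replicate 3 exceeded WT replicate 1. Its mean was 27.5 ± 4.34 CPM in lf:YAP and 44 ± 9.92 CPM in WT (SD, n = 4 each), or -0.69 ± 0.19 in log2 fold change (SE; adjusted p = 0.0216). The call did not hold when replicate 2 or 4 of lf:YAP, or replicate 3 or 4 of WT, was left out (adjusted p of 0.052 to 0.0769) and with total counts alone (-0.42, adjusted p = 0.187).

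A ratio of 2 transcripts within a library does not depend on how libraries are scaled. The log2 ratio of acaca to acacb counts was 0.81, 1.46, 0.44 and 1.46 in lf:YAP replicates 1 to 4, against 0.18, -0.19, 0.04 and -0.26 in WT. All lf:YAP libraries were above all WT libraries. The mean log2 ratio was 1.04 ± 0.50 in lf:YAP and -0.06 ± 0.20 in WT (SD, n = 4 each), a difference of 1.1 (2-sided exact permutation p = 0.0286, the smallest that 4 against 4 libraries allow, and 0.0857 adjusted over 6 ratios). The log2 ratio of aclya to acss2 was 2.72 to 3.72 in lf:YAP and 0.21 to 1.21 in WT, a difference of 2.55. Its exact permutation p was the same 0.0286 (adjusted 0.0857). The groups had to separate for this ratio, since all lf:YAP libraries lay above WT for aclya and below WT for acss2. The separation is therefore no further support for either difference. Of the 6 ratios, none could pass after adjustment unless at least 4 of them reached that smallest p.

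**Figure D2:**
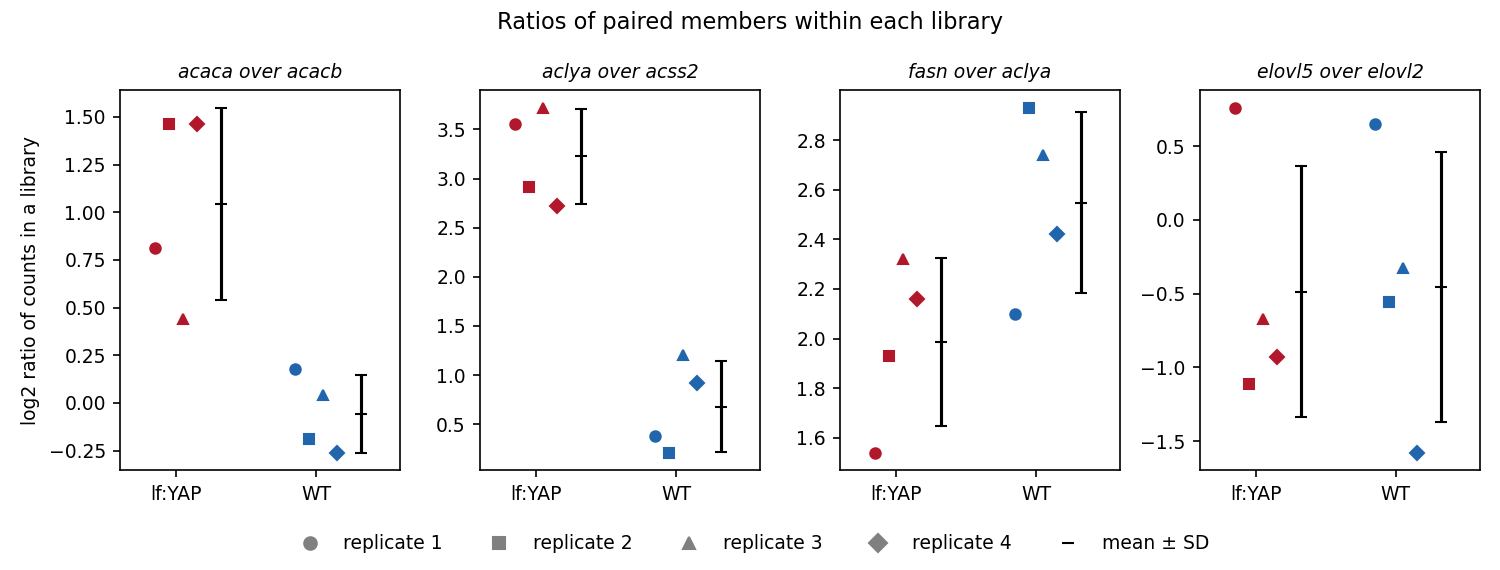
Each panel plots the log2 ratio of the counts of 2 genes within a library (vertical axis, a scale of its own that does not start at 0) for the 4 lf:YAP and 4 WT libraries, with the group mean ± SD as a black bar. The groups separate for acaca over acacb and for aclya over acss2, and overlap for fasn over aclya and for elovl5 over elovl2.

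Fatty acid synthase, encoded by fasn, assembles palmitate. Its transcript was at 105, 144, 128 and 144 CPM in lf:YAP replicates 1 to 4, against 56.8, 66, 92.2 and 69.2 CPM in WT. The groups did not overlap, and the closest libraries were lf:YAP replicate 1 and WT replicate 3. The mean was 130 ± 18.2 CPM in lf:YAP and 71.1 ± 15.1 CPM in WT (SD, n = 4 each), or 0.87 ± 0.18 in log2 fold change (SE; adjusted p = 0.00502), with 0.77 to 1.01 across the libraries left out in turn. The log2 ratio of fasn to aclya was lower in lf:YAP by a mean difference of -0.56, at 1.99 ± 0.34 in lf:YAP and 2.55 ± 0.37 in WT (SD, n = 4 each), which did not pass (2-sided exact permutation p = 0.0857, adjusted 0.129).

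The desaturase transcript fads2 had the largest log2 fold change among the tested members. The zebrafish fads2 enzyme acts at more than 1 position of polyunsaturated chains and so serves several steps from dietary precursors to long-chain polyunsaturated fatty acids. Its transcript was at 65.0, 121, 47.8 and 104 CPM in lf:YAP replicates 1 to 4, from 179, 469, 111 and 416 counts. In WT it was at 13.9, 8.88, 10.7 and 8.34 CPM, from 36, 23, 26 and 30 counts. All lf:YAP libraries lay far above all WT libraries, and within lf:YAP replicates 2 and 4 were higher than replicates 1 and 3. The mean was 84.4 ± 33.7 CPM in lf:YAP and 10.5 ± 2.51 CPM in WT (SD, n = 4 each), or 3.03 ± 0.31 in log2 fold change (SE) with an adjusted p of 8.63e-05. Counted from the highest log2 fold change, fads2 ranked 37 among the 8369 genes tested.

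The stearoyl-CoA desaturase gene scd, whose product makes monounsaturated fatty acids, was nearly absent from WT libraries. It had 3, 17, 5 and 9 counts in lf:YAP replicates 1 to 4, against 0, 0, 0 and 4 counts in WT. The groups overlapped, since the 4 counts of WT replicate 4 (1.11 CPM) exceeded lf:YAP replicate 1 (1.09 CPM). The 34 counts in lf:YAP against 4 in WT gave a ratio of 7.35 after scaling, with a 95% exact binomial interval from 2.62 to 28.5 that covers counting error only. With a looser filter of 1 CPM in 4 or more libraries, under which 16.4% of 12875 genes were called, scd was tested and passed, with a log2 fold change of 2.77 (adjusted p = 0.0317). It met that looser filter through 4 lf:YAP libraries and 1 WT library, so it was tested because it was higher in lf:YAP, and the pass is no support for a difference. The second stearoyl-CoA desaturase row, scdb, had 4 counts in lf:YAP and 8 in WT. The ratio of fads2 to scd cannot be read, as 3 WT libraries had no scd counts and the difference moved from 0 to 1.24 with the number added to each count.

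Elongases add carbons to acyl chains. In vertebrates elovl5 and elovl2 act on polyunsaturated chains, with elovl2 preferring the longer ones, and elovl6 acts on saturated and monounsaturated chains. The elovl5 transcript was at 13.1, 10.5, 5.6 and 9.51 CPM in lf:YAP replicates 1 to 4, against 6.18, 3.09, 4.53 and 2.78 CPM in WT. The groups overlapped where lf:YAP replicate 3 fell below WT replicate 1. From 36, 41, 13 and 38 counts in lf:YAP and 16, 8, 11 and 10 in WT, its log2 fold change was 1.25 ± 0.33 (SE; adjusted p = 0.0156). The call was lost without WT replicate 2 (1.13, adjusted p = 0.0513) or WT replicate 4 (1.07, adjusted p = 0.0501).

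The elovl2 transcript was at 7.63, 22.9, 9.05 and 18.3 CPM in lf:YAP replicates 1 to 4, against 3.86, 4.63, 5.76 and 8.62 CPM in WT. The lf:YAP libraries fell into a higher pair, replicates 2 and 4, and a lower pair, of which replicate 1 lay below WT replicate 4. Its mean was 14.5 ± 7.34 CPM in lf:YAP and 5.72 ± 2.08 CPM in WT (SD, n = 4 each), or 1.34 ± 0.38 in log2 fold change (SE; adjusted p = 0.0261). The call was lost without lf:YAP replicate 2 (1.04, adjusted p = 0.0819) or 4, without WT replicate 1, 2 or 3, and with limma-voom (1.25, adjusted p = 0.0539). The log2 ratio of elovl5 to elovl2 had a mean of -0.49 ± 0.85 in lf:YAP and -0.46 ± 0.92 in WT (SD, n = 4 each), and the difference of -0.03 was far within the spread (2-sided exact permutation p = 0.943).

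The elovl6 transcript was at the edge of detection, with 1, 2, 1 and 5 counts in lf:YAP against 0, 1, 0 and 1 in WT, replicates 1 to 4 in each case. The ratio of 3.89 had an exact binomial interval from 0.805 to 37.0, so no difference was detectable at this depth. The row elovl6l, a related symbol named after its values were seen, had 26, 28, 16 and 41 counts in lf:YAP, against 0, 3, 0 and 7 in WT. The groups did not overlap, at 8.45 ± 1.66 CPM in lf:YAP and 0.776 ± 0.952 CPM in WT (SD, n = 4 each). The elovl6l row met the filter in 4 lf:YAP libraries and 0 WT libraries, so it was tested only because it was higher in lf:YAP. Its log2 fold change of 3.22 ± 0.54 (SE) is therefore given as a description. The log2 ratio of elovl6 to scd, which rests on the same near-empty rows, differed by -1.67 (2-sided exact permutation p = 0.0857, adjusted 0.129).

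Over the members, the groups did not overlap for 4 (acss2, aclya, fasn and fads2), beside 23.7% of all genes tested. The authors' deposited table gave an adjusted p under 0.05 to 4 of the 10 members, all higher in lf:YAP, beside 5.02% of its 35117 rows. These were fads2 (adjusted p = 0.00304 in the authors' deposited table), aclya (0.00405), fasn (0.0131) and scd (0.0168). Of the 28599 rows with a gene name, 20230 did not meet the filter used here, the near-empty scd row among them. The 5.02% is thus not a share over genes with enough counts to be tested here. In the authors' deposited table, acacb (0.0854), acss2 (0.125), elovl2 (0.132), elovl5 (0.0531), elovl6 (0.163) and acaca (0.179) did not pass, with log2 fold changes of the same direction as those given here for the tested genes.

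**Figure D3:**
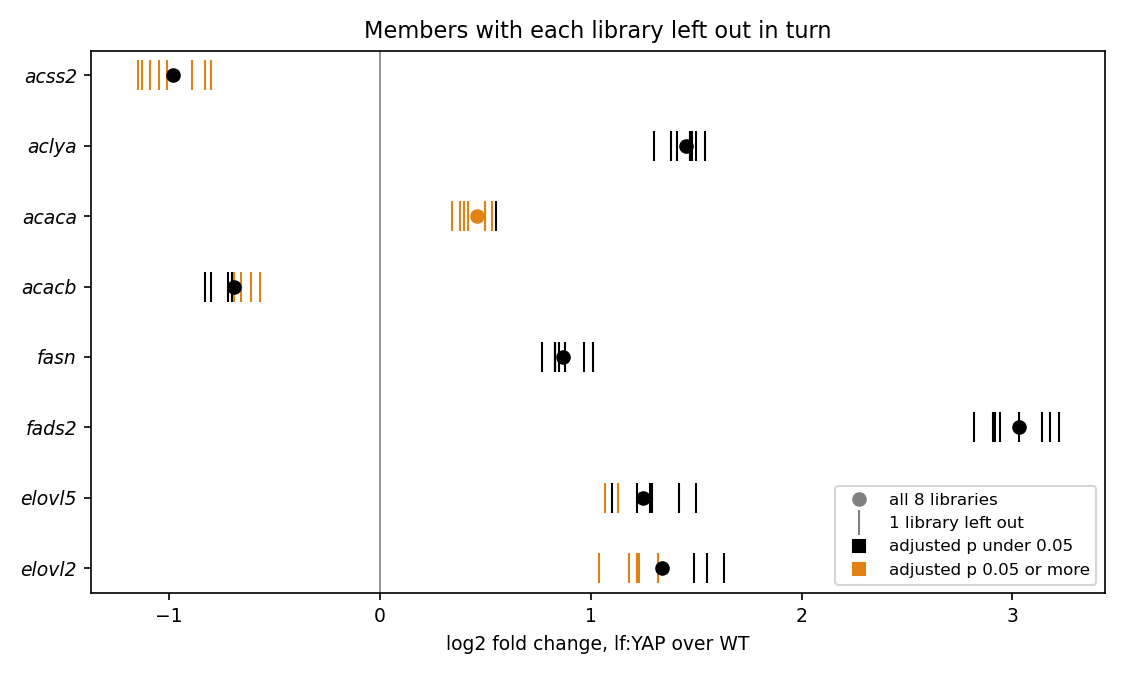
The horizontal axis gives the log2 fold change (lf:YAP over WT) for the 8 tested members, with a dot for the fit on all 8 libraries and a tick for each fit without 1 library; black marks an adjusted p under 0.05 and orange one of 0.05 or more. All ticks of aclya, fasn and fads2 are black and all ticks of acss2 are orange, and no tick of any tested member crosses 0.

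The members varied together across lf:YAP libraries only in part. Of the 8 tested members, 5 had their lowest lf:YAP value in replicate 3 and 6 had their highest in replicate 2 or 4. The other lowest values were those of fasn and elovl2, in replicate 1, and of acacb, in replicate 2. The other highest values were those of elovl5, in replicate 1, and of acacb, in replicate 3. The acss2 transcript, which was lower in lf:YAP, was also lowest in replicate 3, unlike acacb. The yap1 transcript was at 639, 1020, 303 and 1320 CPM in lf:YAP replicates 1 to 4, so its lowest library was also replicate 3 and its highest pair also replicates 2 and 4. In lf:YAP, summed exocrine pancreas markers were highest in replicate 3, at 16440 CPM against 3202 to 3795 CPM in the other libraries. The TMM scaling factors were 1.046, 1.283, 0.8674 and 1.279 in lf:YAP replicates 1 to 4, again lowest in replicate 3 and highest in replicates 2 and 4. Which of these the members varied with was not tested. With 4 lf:YAP libraries no correlation was computed. The share of all genes with their lowest or highest lf:YAP value in these libraries was not computed either. Over all genes tested, 18.2%, 15.2%, 28.2% and 16.4% were called without lf:YAP replicates 1 to 4 in turn. Replicate 3 thus stood apart over the whole table as well, not in the members alone.

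**Figure D4:**
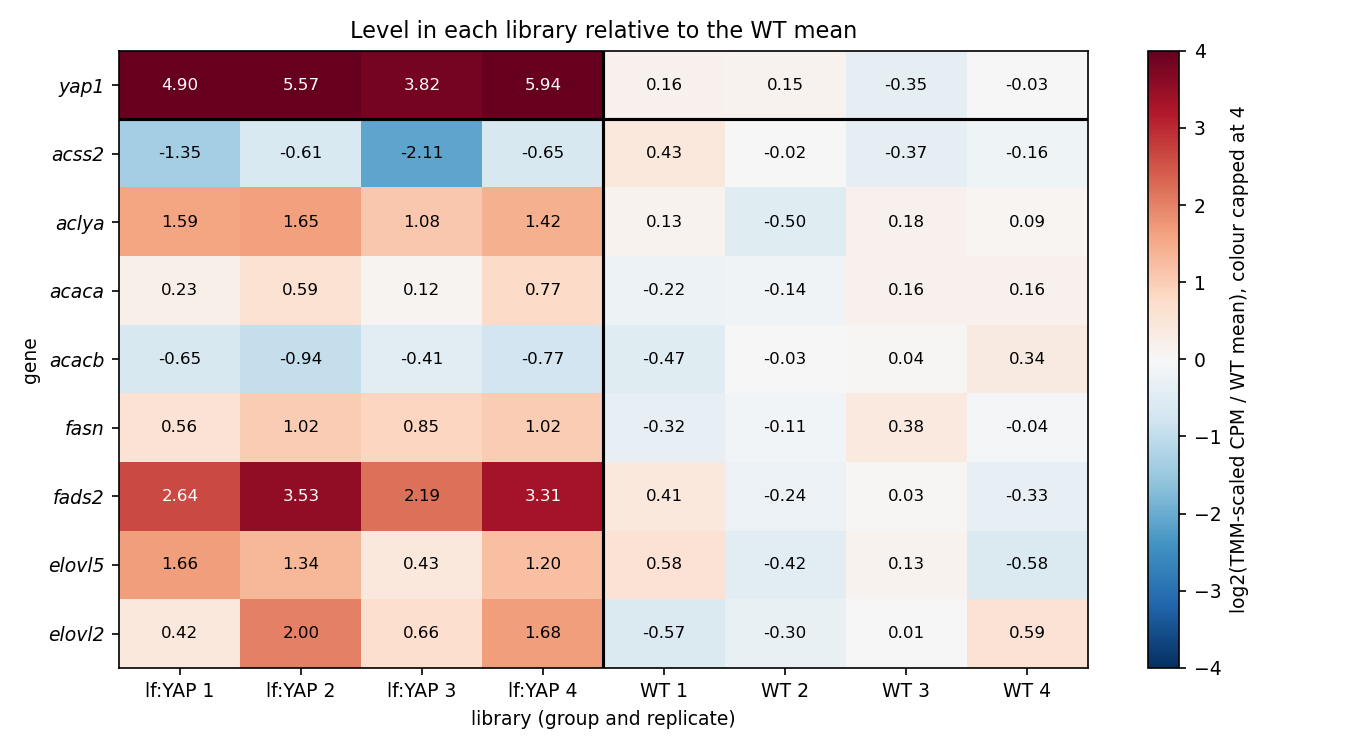
Each cell gives the log2 of a gene's TMM-scaled CPM over its WT mean, with genes in rows, yap1 on top, and the 4 lf:YAP libraries to the left of the 4 WT libraries; red is higher and blue lower than the WT mean, with colour capped at 4. In lf:YAP, fads2 stood at 2.64, 3.53, 2.19 and 3.31 and elovl2 at 0.42, 2, 0.66 and 1.68 for replicates 1 to 4, while acacb and acss2 were below 0 in all 4.

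Markers of other tissue in the dissected samples also differed between libraries. Summed exocrine pancreas markers (16 of 17 matched) were at 3795, 3605, 16440 and 3202 CPM in lf:YAP replicates 1 to 4, against 2959, 4679, 8445 and 12460 CPM in WT. Without lf:YAP replicate 3 and WT replicate 4, the richest of each group, 7 members passed, 6 higher and 1 lower, where 26.9% of 8671 genes were called, 13.3% higher and 13.7% lower: fads2 stood at 3.10 in log2 fold change, aclya 1.57, fasn 0.85, elovl2 1.79, elovl5 1.23, acaca 0.60 and acacb -0.67. In that fit acss2 did not pass (-0.87, adjusted p = 0.0761). Intestine markers (12 of 13) summed to 383.3 to 932.2 CPM in lf:YAP and 546.6 to 1538 CPM in WT, and the sums overlapped. The most abundant, apoa4b.1, averaged 274 CPM in lf:YAP and 296 CPM in WT and was not called. The sum thus does not stand for each marker. Whether apoa4b.1 and mttp come from intestine alone in these samples was not tested. Of 10 tested intestine markers, 0 were higher and 4 lower in lf:YAP, with a median log2 fold change of -1.29. In the fit on all 8 libraries, to which this and the next marker counts belong, 11.1% of all genes tested were higher and 10.5% lower. The lower ones were chia.1 (-2.74), slc15a1b (-2.29), anpepb (-1.73) and anpepa (-1.13). Skeletal muscle markers (16 of 16) summed to 164.9 to 849.1 CPM in lf:YAP and 553.9 to 918.9 CPM in WT. Of these 16, 2 were higher (acta1a and acta1b) and 3 lower (myhz2, myhz1.2 and myhz1.3), with a median log2 fold change of -0.89. The acta1b transcript met the filter in 4 lf:YAP and 0 WT libraries, and myhz1.3 in 0 lf:YAP and 4 WT libraries. Both were tested only through the group where they were higher, so their calls are descriptions. Of 16 exocrine pancreas markers 0 were called. Their log2 fold changes had an SE of 0.62 to 0.73, so differences of moderate size could have been missed.

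Bile duct markers (10 of 10) summed to 3005 to 5395 CPM in lf:YAP and 1543 to 1595 CPM in WT, with no overlap. The most abundant were krt8 (1600 CPM in lf:YAP and 766 CPM in WT on average), anxa4 (1100 CPM in lf:YAP and 417 CPM in WT) and krt18a.1 (1070 CPM in lf:YAP and 272 CPM in WT), which thus made up most of the sum. Of 8 tested markers 5 were higher, the other two being sox9b and epcam, and hnf1ba (0.34), krt94 (0.23) and alcama (0.21 in log2 fold change) did not pass. The untested cftr had 9 counts in lf:YAP and 12 in WT, and abcb11a 19 in lf:YAP and 44 in WT. Whether the genes of this list, krt8, krt18a.1 and abcb11a among them, come from bile duct cells alone in these samples was not tested. Blood and immune markers (11 of 12) summed to 27.79 to 43.51 CPM in lf:YAP and 9.657 to 29.74 CPM in WT. Endothelial and stellate markers (16 of 16, with pdgfrb at 0 in all libraries) summed to 155.1 to 205.2 CPM in lf:YAP and 203.8 to 273.7 CPM in WT, with 0 of 11 tested genes higher and 3 lower. The lower genes were desma (-2.57), vim (-1.67) and rgs5a (-0.87 in log2 fold change). The 8 that did not pass ran from -0.93 (acta2) to 0.47 (fli1a), with kdrl at -0.18 and cdh5 at 0.30. The sum thus does not stand for each gene of this list. Beside these marker counts, 11.1% of all genes tested were higher and 10.5% lower. The part of any of these cell types in the members' differences was not tested.

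Beyond the members, 5 lists of neighbouring genes held 59 tested genes, of which 9 were higher and 10 lower, with a median log2 fold change of -0.12. Over all genes tested, 11.1% were higher and 10.5% lower, with a median of 0.01, the background for each list below. Among the lower genes, cbr4 and prkab1a met the filter in 4 WT libraries and 0 lf:YAP libraries. FADS6 and acsf2 met it in 4 WT libraries and 1 lf:YAP library. The counts are therefore descriptions. In the list of carbon and NADPH supply, 2 of 10 tested genes were higher and 2 lower. The pentose phosphate gene pgd, whose enzyme reduces NADP, was at 71.4 ± 15.7 CPM in lf:YAP and 37.3 ± 4.16 CPM in WT (SD, n = 4 each). Its log2 fold change was 0.94 ± 0.18 (SE; adjusted p = 0.00318). The mitochondrial NADP-linked isocitrate dehydrogenase gene idh2 rose by 1.24 ± 0.24, with all lf:YAP libraries above all WT libraries for both genes. The mitochondrial acyl-CoA synthetase family genes acss1 and acss3 fell, by log2 fold changes of -1.29 and -0.79; the acss3 call was lost with total counts alone (-0.47, adjusted p = 0.215). The citrate carrier gene slc25a1b stood at -0.35 in log2 fold change (adjusted p = 0.155), and the second ATP citrate lyase row, aclyb, had 4 counts in lf:YAP and 15 in WT.

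Few other elongation and desaturation genes were abundant enough to test. Of 8 tested, elovl1b, an elongase gene, was higher (1.11 ± 0.35, adjusted p = 0.0441), and FADS6, of the desaturase family, and hsd17b12b, which encodes the ketoacyl-CoA reductase of the elongation cycle, were lower (-1.77 ± 0.46 and -0.74 ± 0.23; ± SE). FADS6 met the filter in 4 WT libraries and 1 lf:YAP library, that is mainly through the group where it was higher. All 3 calls were lost in some fits without 1 library. The elovl1b call was kept only without lf:YAP replicate 3 or WT replicate 4, at log2 fold changes of 0.77 to 1.33 over all 8 such fits, and was also lost with limma-voom (adjusted p = 0.0697). FADS6 did not pass without replicate 2 of lf:YAP or of WT, at -1.61 and -1.62 (adjusted p of 0.0573 and 0.0524). The hsd17b12b call was lost without replicate 1 or 4 of lf:YAP, or 2 or 4 of WT, at -0.75 to -0.60 (adjusted p of 0.0647 to 0.106), and with total counts alone (-0.44, adjusted p = 0.258). The untested elovl1a had 24 counts in lf:YAP and 1 in WT, and hsd17b12a had 4 in lf:YAP and 31 in WT.

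Among acyl-CoA synthetases and acyl-CoA binding proteins, 2 of 15 tested genes were higher and 3 lower. Over all genes tested these shares were 11.1% and 10.5%. The acyl-CoA binding protein gene dbi was at 50.2 ± 13.2 CPM in lf:YAP and 19.9 ± 5.20 CPM in WT (SD, n = 4 each), or 1.34 ± 0.24 in log2 fold change (SE; adjusted p = 0.00189). The long-chain synthetase gene acsl3b rose by 0.89 ± 0.24, a call that did not hold without replicate 2 of lf:YAP, or replicate 1 or 2 of WT. The synthetase gene acsbg1 and the acyl-CoA binding gene acbd5a fell, with log2 fold changes of -1.39 ± 0.28 and -0.83 ± 0.22 (± SE); acbd5a did not pass with total counts alone (-0.58, adjusted p = 0.0518). The third lower gene, acsf2, met the filter in 4 WT libraries and 1 lf:YAP library. It was at -1.52 and passed in only 1 of the 8 fits without a library, that without lf:YAP replicate 3, at -2.34.

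Mitochondria have a fatty acid synthesis pathway of their own, which supplies lipoic acid. Of 6 tested genes of that list 0 were higher and 1 was lower, beside 11.1% higher and 10.5% lower over all genes tested. This was cbr4, whose mammalian product is part of a ketoacyl reductase of that pathway, at 1.82 ± 0.779 CPM in lf:YAP and 8.98 ± 2.30 CPM in WT (SD, n = 4 each), which is -2.29 ± 0.36 in log2 fold change (SE; adjusted p = 0.000786). It met the filter in 4 WT libraries and 0 lf:YAP libraries, so it was tested only because it was higher in WT. Its call is therefore given as a description. The carrier protein gene ndufab1b (-0.61), oxsm (0.43) and lipt2 (-0.33), whose products also serve that pathway, did not pass.

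Of 20 tested regulators of lipogenesis, 4 were higher and 2 lower, and 14 did not pass, beside 21.6% called over all genes. The gene srebf1, encoding SREBP1, was at 82.5, 94.2, 94.3 and 100 CPM in lf:YAP replicates 1 to 4, against 55.2, 49.8, 67.9 and 55.9 CPM in WT. Its lf:YAP values were thus close together, without the spread seen for fads2 and elovl2. The ChREBP gene mlxipl (on 2 rows, of which the more abundant was used) was at 24.0, 43.5, 22.0 and 30.0 CPM in lf:YAP, against 12, 15.4, 13.6 and 15.3 CPM in WT. The groups did not overlap for either gene. The other higher regulators were srebf2, encoding SREBP2, and insig1, which encodes an endoplasmic reticulum protein that retains SREBP precursors (0.66 ± 0.18 on the log2 scale, SE). The srebf2 call was lost without WT replicate 2 or 4, and the insig1 call without replicate 1 or 2 of either group.

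The lower regulators were prkab1a, encoding a regulatory subunit of the energy-sensing kinase AMPK, and rxraa, encoding a retinoid X receptor. The prkab1a transcript was at 2.24 ± 0.954 CPM in lf:YAP and 6.86 ± 0.182 CPM in WT (SD, n = 4 each), or -1.64 ± 0.31 in log2 fold change (SE; adjusted p = 0.00295). Like cbr4, it met the filter in 4 WT libraries and 0 lf:YAP libraries, so its call is also given as a description. The rxraa transcript stood at -0.81 ± 0.18 in log2 fold change (SE; adjusted p = 0.0065), and did not pass with total counts alone (-0.50, adjusted p = 0.129). Those that did not pass included scap, the escort of SREBP precursors (-0.35, adjusted p = 0.308), the liver X receptor gene nr1h3 (0.12, adjusted p = 0.611) and the AMPK catalytic gene prkaa1 (0.10, adjusted p = 0.766).

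**Figure D5:**
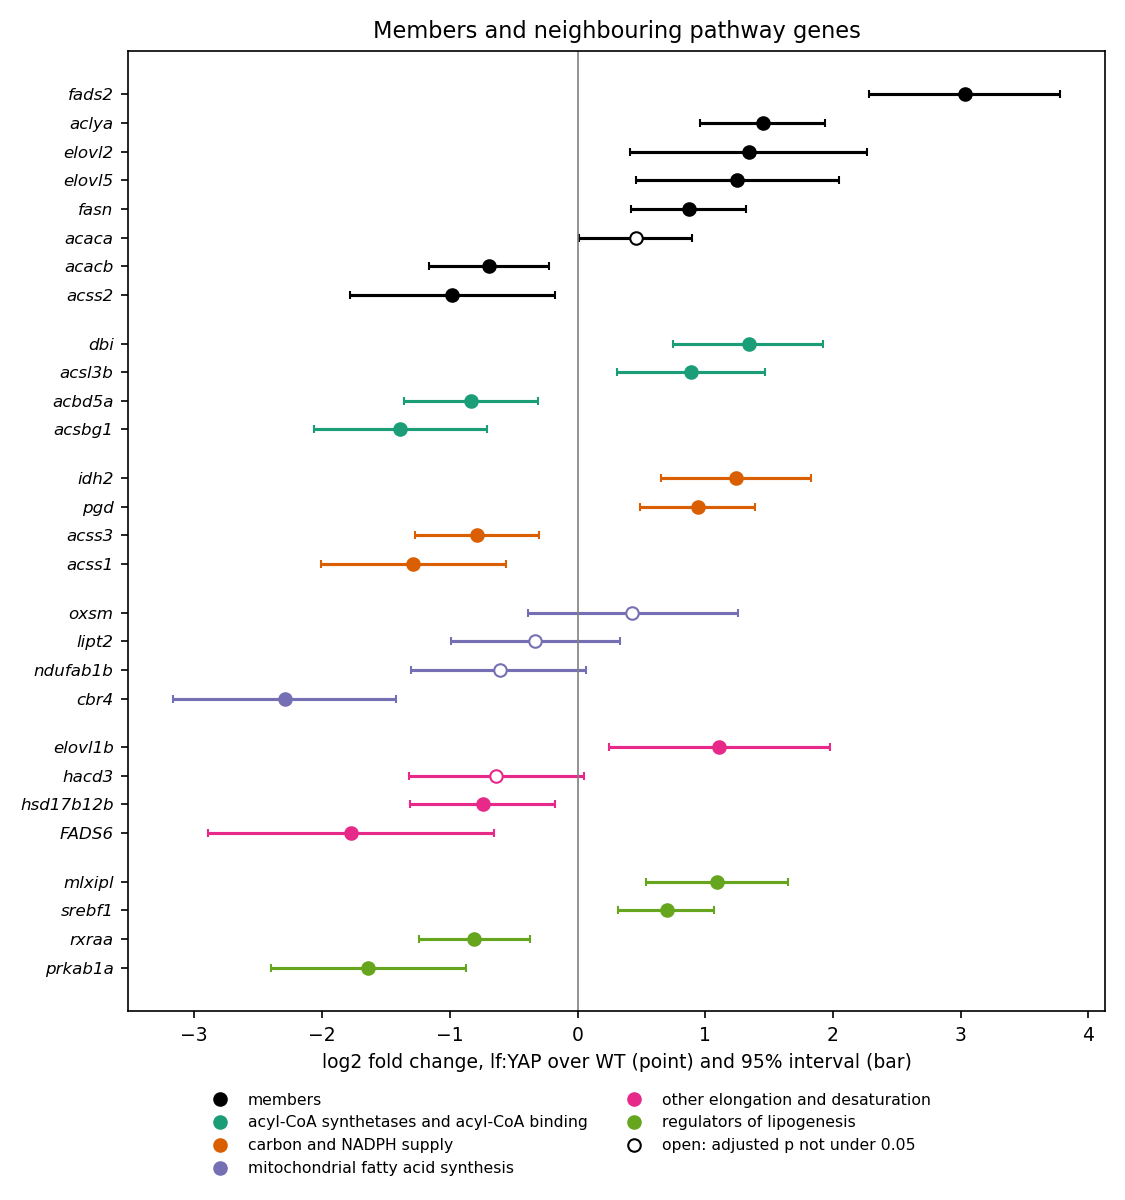
Points give the log2 fold change (lf:YAP over WT) (horizontal axis) and bars its 95% interval for the 8 tested members and for the 4 genes of smallest p in each of 5 neighbouring lists, coloured by list; filled points have an adjusted p under 0.05. The interval of fads2, from 2.28 to 3.78, lies to the right of those of all other genes shown, and each list but that of mitochondrial synthesis has filled points on both sides of 0.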

How the data were processed

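Per the labels' protocols, livers were taken up in TRIzol, RNA was column-purified, and stranded total RNA libraries were sequenced with paired 75-base reads to a stated depth of 15M. Per the submitters' processing notes, the tools were HISAT2 2.1.0, featureCounts 1.6.0, cutadapt 1.16 and limma 3.40.6, with the build danRer10 and no role stated. Annotation and strand setting were not stated in these sources, so reads of overlapping, antisense or paralogous genes cannot be told apart. The authors deposited raw counts, 1 per gene and library, which all results use, and CPM values. The authors' deposited table also gives a log2 fold change, a log2 mean and p-values, raw and adjusted. Of its 35117 rows, 6518 carry no gene name (0.657% to 2.55% of counts) and were left out; a single row took 25.9% to 36.5% of the named counts.

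Counts were fitted in R 4.3.3 with edgeR 4.0.16: filterByExpr, TMM, robust quasi-likelihood F-test, 2-sided, group as the only term, Benjamini-Hochberg adjustment over all genes tested. SE is the log2 fold change over the square root of F; 95% intervals use 6 residual degrees of freedom. Ratios within a library added 0.5 to each count and were tested by exact permutation (SciPy 1.17.1). On simulated counts for 8369 genes, 45% of 100 changes of 1 and 88% of 100 changes of 2 on the log2 scale were recovered. A far larger share, 21.6%, was called in the data, so these recoveries need not hold for the real fit. Alternatives were other scalings, filters, DESeq2 1.42.0, limma-voom 3.58.1, a replicate block and each library left out. Members and lists were chosen with earlier results of these data known. Named genes are all members, srebf1, srebf2, mlxipl and yap1, and up to 4 genes of smallest p per list; others were named after their values were seen. For 1 gene of the supply list, the result is not reported here.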

Additional observations from a re-analysis of the deposited data

Results flagged for a closer look

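Of 68 groups of 4 libraries checked for a library far from the other 3, 5 were marked by Dixon's criterion, where chance marks about 1 in 20. The aclya transcript in WT replicate 2 stood at 8.49 CPM, below the 12.8 to 13.6 CPM of the other WT libraries. The scd transcript in WT replicate 4 stood at 1.11 CPM, with 0 in the other WT libraries; this library also had the most exocrine pancreas transcripts in its group. Among neighbouring genes, oxsm was at 8.62 CPM in lf:YAP replicate 3 (4.89 to 5.09 CPM in the others). The rxraa transcript was at 30.1 CPM in WT replicate 2 (38.3 to 39.4 CPM in the others). The prkab1a transcript was at 6.59 CPM in WT replicate 3 (6.95 CPM in each of the others). Its WT values came from 18, 18, 16 and 25 counts, so that gap lies within counting error. The scd and prkab1a marks arose from ties among the other libraries, so the rate of 1 in 20 need not hold for them.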

How the results depend on the processing

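The direction of every tested member stayed the same under all alternatives run, and fads2 (2.82 to 3.4), aclya (1.3 to 1.77) and fasn (0.77 to 1.2 on the log2 scale) passed in all 17. The count of members changed ranged from 4 to 7 with 1 library left out, against 7 with all. Of all genes tested, 15.2% to 28.2% were called in those fits, against 21.6% with all libraries. Over the whole table, 2855 of 22936 genes were called with no filter, a smaller share than the 1804 of 8369 with it. For the ratio of fads2 to scd, an added count of 2 gave a difference of 1.24, against 0 with 0.5; the near-empty scd row sets that value. With the replicate block 6 members passed (acss2 did not, adjusted p = 0.0536), and 1685 of 8369 genes were called. Deviations of same-numbered libraries from their group means correlated at -0.03, -0.01, 0.04 and -0.05 for numbers 1 to 4. Same-numbered libraries thus showed no shared deviation over the genes tested. The labels do not state whether the numbers pair the samples, and these values cannot settle it. Fits without 1 library or within pairs cannot bring a single ratio under 0.05 and gave values only. The alternative without the libraries richest in exocrine pancreas transcripts was chosen after seeing the data. Depth limits scd, elovl6 and acss2, whose libraries held at most 26 counts each.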
